A study of Mus musculus with 2 samples.

Results

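The nuclear genes for the structural subunits of oxidative phosphorylation were followed in RNA of long-term haematopoietic stem cells, as the labels call the sorted cells, which sustain blood formation in the bone marrow. A fixed list of 85 nuclear subunit genes of complexes I to V was matched by Entrez identifier, and 81 of them were among the 17216 genes listed, with 36 in complex I, 4 in complex II, 9 in complex III, 15 in complex IV and 17 in complex V. The 4 genes not listed in either library were Ndufb1 and the isoforms Cox7b2, Cox8b and Cox8c. Assembly factors, pseudogenes and Cox6a2 were left out. All 81 listed members averaged 1 FPKM or more (reads scaled for transcript length and library depth), so none was lost to the filter on low values.

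The study compared C57BL/6 mice of genotype Ccp3-/-, which lack the cytosolic carboxypeptidase CCP3, with wild type littermates. The sort took cells positive for CD150, c-Kit and Sca-1 and negative for CD48 and lineage markers, and 1 RNA library was sequenced per genotype. The labels used here do not give the number, age or sex of the animals or the part of the gene that was deleted. With 1 library per genotype there was no replicate check and no test between genotypes: every value below compares 2 libraries. For Agbl3, the gene of CCP3, the wild type library gave 1.11 FPKM and the Ccp3-/- library 0.66 FPKM, a ratio of 0.595 (95% counting interval 0.289 to 1.19), which does not check the genotype label. The latter is named the knockout-labelled library below.

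Oxidative phosphorylation takes place in the inner mitochondrial membrane. Complexes I and II pass electrons from NADH and succinate to ubiquinone, complex III passes them to cytochrome c, and complex IV passes them to oxygen. Complexes I, III and IV pump protons as they do so, and complex V, the ATP synthase, uses the proton gradient to make ATP. Long-term stem cells are known for relying on it less than their dividing progeny do. Complexes I, III, IV and V combine nuclear subunits with others encoded by mitochondrial DNA. The latter were not analysed here.

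The file depths were similar, at about 15.5 M reads in the wild type and 14.3 M reads in the knockout-labelled library, as reconstructed from the steps between low FPKM values. Of the gate's own genes, Kit stood at 59.7 and 56.5 FPKM and Ly6a, which encodes Sca-1, at 49.1 and 28.4 FPKM in the wild type and knockout-labelled libraries. RNA of Cd48 stood at 136 and 114 FPKM although the sort removed cells with CD48. That RNA went against the gate in both libraries. Slamf1, the CD150 gene, was present at a low level, at 2.14 and 3.40 FPKM. Cd34 and Procr, also followed as stem cell markers but not named in the sort, stood at 248 and 177 FPKM and at 29.0 and 14.5 FPKM. The gate reads surface protein, so RNA levels do not show which cells passed it. Markers of other blood cells differed between the libraries. The 10 neutrophil markers summed to 8398 and 11595 FPKM, the 7 B cell markers to 112 and 51.3 FPKM, the 6 dendritic cell markers to 478 and 276 FPKM, and the 7 erythroid markers to 1293 and 298 FPKM. Of the 10 neutrophil markers, Camp and Ngp were lower in the knockout-labelled library and the others higher. All 7 B cell and all 6 dendritic cell markers were lower. Flt3, counted here with the dendritic cell markers, was the most abundant of them, at 155 and 82.5 FPKM. Of the 7 erythroid markers, 6 were lower and Klf1 was higher, and Hba-a1 and Hbb-bs made up most of the sum in both libraries. No marker of these lists was at 0 in either library. The part of these cell differences in the values below was not tested, and in bulk RNA fewer cells of a type and less RNA per cell cannot be told apart.

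Of the 81 subunit genes, 75 had a lower FPKM in the knockout-labelled library, by small amounts. The difference of a gene is given as log2(FPKM + 1) in the knockout-labelled minus the wild type library, which understates changes of low genes. Its median over the 81 members was −0.22, with a range from −0.77 (Cox8a) to 0.17 (Uqcr10), against a median of 0.01 over the 11985 genes that averaged 1 FPKM or more. Of those genes 49% were below 0. By a rule of size on this log2(FPKM + 1) scale, 5 members (Ndufs8, Cox4i1, Cox8a, Cox7a1 and Atp5mc2) were at least 1.5-fold lower and 0 at least 1.5-fold higher, where 6.13% and 6.11% of all genes were. Ndufa11, at a low level, was past 1.5-fold by its FPKM ratio (0.633) but not on this scale. At 1.2-fold, 34 members were lower and 0 higher, beside 21.5% and 22.6% of all genes. Counting error alone left an interval of the ratio below 1 for 57 members and above 1 for 2, beside 27% and 31.2% of all genes. These intervals narrow with depth, and the median level was 118 FPKM over the members and 11.7 FPKM over all genes.

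Summed over the members, the subunit genes made up 2.17% of all wild type FPKM and 2.08% of all knockout-labelled FPKM. The sums of FPKM were 12508 and 10545, a ratio of 0.843 (95% counting interval 0.837 to 0.850). Intervals of summed FPKM, here and below, are approximate, as they come from pooled reads. With equal FPKM sums in both libraries, 50 of 81 members were below 0, beside 30.3% of all genes, and their median was −0.03, while all genes then had a median of 0.18. Of the 5 genes named above, Cox7a1 alone was then at least 1.5-fold lower. The order of the members was nearly the same in both libraries. Across the 81 genes, log2 FPKM in the 2 libraries had a Pearson's r of 0.989 and a Spearman's rho of 0.984, a description across genes that share both libraries. In all, 43 members kept their rank within their complex, and the largest shift was 6 places, for Ndufa5.

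**Figure D1:**
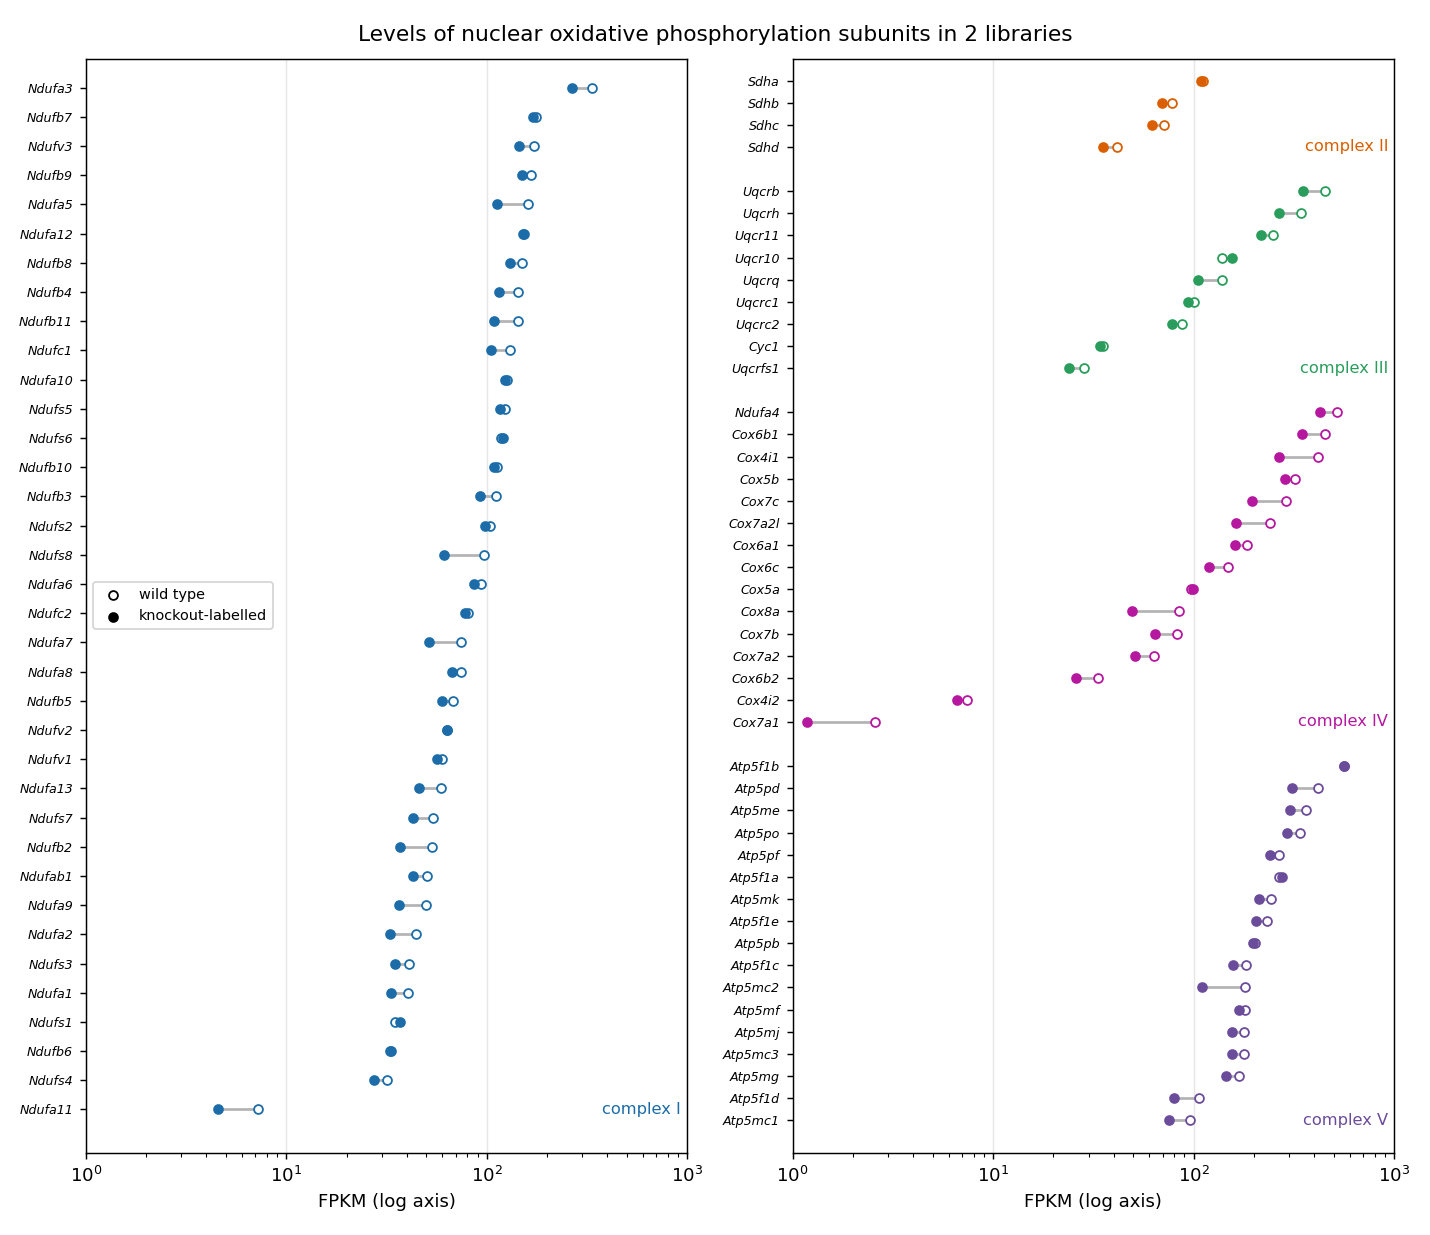
FPKM (log axis) of each of the 81 subunit genes in the wild type library (open circles) and the knockout-labelled library (filled circles), sorted by the wild type level within each complex. Most filled circles lie to the left of the open ones, with Uqcr10 (138 and 156 FPKM) the clearest exception, and levels run from 2.57 FPKM for Cox7a1 to 563 FPKM for Atp5f1b in the wild type library.

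Most of the subunit genes have short transcripts, with a median length of 693 bases against 2686 bases over all genes, and short transcripts in general were lower in the knockout-labelled library. Among 1154 other genes under 1000 bases the median difference was −0.30, and 75.3% were below 0 and 25% at least 1.5-fold lower. The 58 members under 1000 bases had a median of −0.26, with 55 below 0, 5 at least 1.5-fold lower and 0 at least 1.5-fold higher (7.89% of the other short genes). At 1.2-fold, 29 of the 58 were lower, beside 54.2% of the other short genes. The counting interval was below 1 for 44 of the 58 and above 1 for 1, beside 44.6% and 6.15%. Each member was therefore also set against the median difference of the 200 other genes nearest in length, and the remainder is called the length-centred difference. Its median over the 81 members was 0.06, and 26 members were below 0, beside 49.9% of all genes. The sign of this median turned under 2 of the 17 other settings tried, to −0.05 with a reference also within 2-fold in mean FPKM and to −0.02 with no filter on low values.

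The spread among members was narrow beside genes of their length. Only 7 of 81 members lay below the lower quartile of their 200 neighbours and 10 above the upper quartile, where each quartile cuts off 25% of the neighbours by construction. The other genes under 1000 bases had a median level of 16.6 FPKM, against 132 FPKM for the members under 1000 bases, so their values carry more counting error. Between log2 length and the difference, Pearson's r was 0.27 and Spearman's rho 0.25 across the 81 members, which share both libraries, and 0.34 and 0.42 across 11904 other genes. In 5 classes of length, members under 500 bases had a median of −0.28 where other genes had −0.38, and the 31 members of the next class −0.20 where others had −0.35. In the longer classes the members' medians were the lower ones, at −0.30 against −0.26 and −0.22 against −0.18 in the third and the fourth class and −0.05 against 0.06 for 1500 bases or more. The other genes under 500 bases had a median length of 118 bases, against 428 bases for the 14 members. In the class of 1500 bases or more, the other genes had a median length of 3171 bases, against 1772 bases for the 12 members. Length-centred, the median of these 12 members was 0.04, with 8 above 0.

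**Figure D2:**
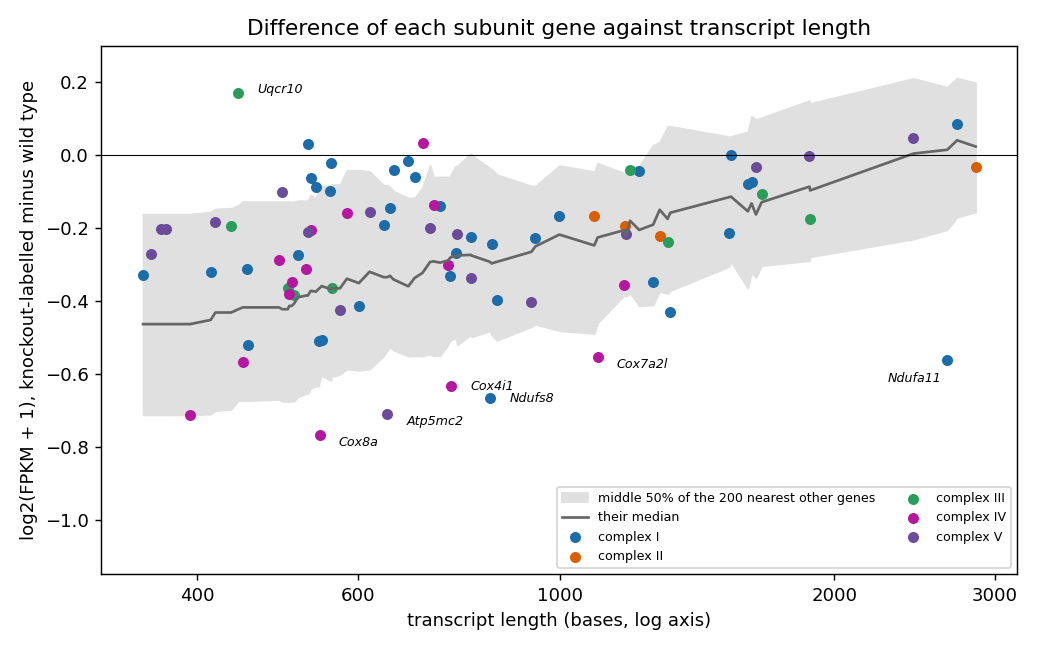
Difference in log2(FPKM + 1), knockout-labelled minus wild type, of each subunit gene against transcript length in bases (log axis), coloured by complex. The grey line and band give the median and middle 50% of the 200 other genes nearest in length; 10 members sit above the band, with Uqcr10 the farthest from its median, and Cox8a, Atp5mc2, Ndufs8, Cox4i1, Cox7a2l, Ndufa9 and Ndufa11 sit below it.

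Complex I takes electrons from NADH, and its 36 listed nuclear genes had a median difference of −0.22 with 33 below 0. Their FPKM summed to 3538 and 3048, a ratio of 0.862 (0.849 to 0.875). Length-centred, the median was 0.07, and 11 of 36 were below 0. Ndufa3, a small membrane arm subunit, was the most abundant, at 336 and 267 FPKM, followed in the wild type library by Ndufb7 (177 and 169 FPKM), Ndufv3 (172 and 145 FPKM) and Ndufb9 (167 and 151 FPKM). In the knockout-labelled library Ndufa12 and Ndufb9 stood above Ndufv3. Ndufa3 was the highest gene of the complex in both libraries.

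The 7 genes for the conserved core subunits, which carry the flavin and the iron-sulphur clusters or form the ubiquinone site, had a median of −0.08, and the 29 accessory genes −0.22. The core genes are longer, with a median of 1541 bases against 651 bases, and length-centred the medians were 0.04 and 0.12. Among the core genes, Ndufs8 stood apart. It encodes a subunit with a pair of iron-sulphur clusters on the path to ubiquinone and was listed at 97.3 and 60.9 FPKM, a ratio of 0.626 (0.569 to 0.688) and a length-centred difference of −0.37. The other core genes lay closer to 0. Ndufs7, its partner in the ubiquinone arm, was at 54.1 and 42.7 FPKM, and Ndufs3 at 40.9 and 34.7 FPKM. Ndufv2, of the NADH-oxidising module, stood at 63.3 and 63.4 FPKM, with an interval of the ratio from 0.929 to 1.08. Ndufs1, which carries iron-sulphur clusters of the same module, stood at 34.9 and 37.1 FPKM, with a ratio of 1.06 (0.987 to 1.14).

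Among the accessory genes, Ndufa11, a membrane subunit, had the lowest length-centred difference of all members, −0.58. It was also the least abundant gene of complex I, at 7.25 and 4.59 FPKM from about 293 and 172 reads, a ratio of 0.633 (0.521 to 0.767). Its listed transcript is long, at 2661 bases, so its neighbours in length had a median near 0. Ndufa9, which sits near the ubiquinone site, followed at 49.7 and 36.6 FPKM, a ratio of 0.736 (0.667 to 0.813). Ndufb2, Ndufa7 and Ndufa5 had ratios of 0.692, 0.698 and 0.702. For their length these last 3 lay inside the middle 50% of other genes.

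At the upper end, Ndufs6 was listed at 118 and 120.1 FPKM and had a length-centred difference of 0.42. Ndufa12 at 154 and 152 FPKM (0.35) and Ndufb6 at 33.2 and 32.8 FPKM (0.34) followed. These 3 genes were level between the libraries within counting error, with intervals of 0.929 to 1.12, 0.908 to 1.07 and 0.842 to 1.16. All 7 members of complex I above the upper quartile of their neighbours had a raw difference between −0.09 and 0.03. Ndufs6 and Ndufa12 each have a near-identical pseudogene copy in the mouse annotation, and reads could be split between copies.

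Complex II, succinate dehydrogenase, belongs to both the respiratory chain and the tricarboxylic acid cycle, and all its subunits are nuclear. Its 4 genes were below 0, with a median of −0.18. Sdha, the flavin subunit, stood at 111 and 109 FPKM, Sdhb, the iron-sulphur subunit, at 77.8 and 69.2 FPKM, and the membrane anchors Sdhc and Sdhd at 71.2 and 62.1 FPKM and at 41.4 and 35.4 FPKM. The order from Sdha to Sdhd was the same in both libraries. The ratio of sums was 0.913 (0.884 to 0.943), the nearest to 1 of the 5 complexes as deposited. With equal FPKM sums it became 1.04, and complexes I, III and V were then nearer to 1. Length-centred differences ran from −0.07 for Sdhd to 0.08 for Sdhb, with a median of −0.01.

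In complex III, 8 of 9 genes were below 0, with a median of −0.19 and a ratio of sums of 0.843 (0.823 to 0.863). The small accessory subunits were the most abundant. Uqcrb was listed at 449.5 and 349 FPKM, Uqcrh, the hinge protein, at 345 and 268 FPKM, and Uqcr11 at 249 and 218 FPKM. The electron-carrying subunits were the least abundant, with cytochrome c1, Cyc1, at 35.2 and 34.2 FPKM and the Rieske iron-sulphur protein, Uqcrfs1, at 28.4 and 23.9 FPKM. The core proteins Uqcrc1 (101.0 and 93.7 FPKM) and Uqcrc2 (88.0 and 77.8 FPKM) lay between them.

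Uqcr10, a small accessory subunit of complex III, was the one gene of the complex that was higher in the knockout-labelled library. It stood at 138 and 156 FPKM from about 857 and 898 reads, a ratio of 1.13 (1.03 to 1.24). Its length-centred difference of 0.59 was the highest of all 81 members. Uqcrq, of similar length and at 138 FPKM in the wild type library as well, stood at 105 FPKM in the other, a ratio of 0.764 (0.693 to 0.842). Their counting intervals do not overlap, but Uqcr10 was picked as the highest member, so this only describes the values. The other 8 genes of complex III had length-centred differences between −0.08 and 0.24.

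Complex IV, cytochrome c oxidase, was the lowest of the complexes. Its 15 genes had a median of −0.35, and 14 were below 0. Their FPKM summed to 2936 and 2259, a ratio of 0.769 (0.755 to 0.784), below the intervals of the other 4 complexes. Its share of the members' FPKM was 23.5% and 21.4%. Complex IV genes are also short, with a median of 545 bases, and the length-centred median was 0.03. With a reference also within 2-fold in mean FPKM it was −0.16, the lowest of the complexes under that setting. Whether the complexes differ was not tested.

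Ndufa4, once assigned to complex I and counted here with complex IV, with which its protein copurifies, was the most abundant, at 519 and 426 FPKM. Cox6b1, on the cytochrome c side, stood at 451 and 347 FPKM. Cox4i1, the nuclear subunit through which ATP inhibits the enzyme, was listed at 416 and 267 FPKM, a ratio of 0.643 (0.614 to 0.675). Cox8a, a small subunit that crosses the membrane, was listed at 84.2 and 49.0 FPKM, a ratio of 0.582 (0.510 to 0.664). Cox7a2l stood at 239.6 and 163 FPKM, a ratio of 0.680 (0.646 to 0.715). Length-centred, Cox8a (−0.40), Cox4i1 (−0.35) and Cox7a2l (−0.33) were the lowest of the complex, and these 3 lay below the lower quartile of genes of their length. Cox7c (289 and 195 FPKM) was about as low in raw ratio, 0.674, but its short transcript placed it at −0.15.

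Cox5a, of the matrix side, was the one gene of the complex that was not below 0. It stood at 97.1 and 99.3 FPKM, a ratio of 1.02 (0.935 to 1.12) and a length-centred difference of 0.36. Cox5b (319 and 285 FPKM) and Cox6a1 (185 and 160.1 FPKM) had ratios of 0.896 and 0.867. Among the 12 ubiquitous genes the ratios ran from 0.582 for Cox8a to 1.02 for Cox5a.

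Isoforms of complex IV known from lung, testis and muscle were low beside their ubiquitous partners. Cox4i2, the lung isoform, stood at 7.38 and 6.63 FPKM, or 1.75% and 2.42% of the Cox4 sum. Cox6b2, the testis isoform, stood at 33.2 and 25.9 FPKM, or 6.85% and 6.95% of the Cox6b sum. Cox7a1, the heart and muscle isoform, was at least 1.5-fold lower by the rule of size, at 2.57 and 1.18 FPKM, but from about 14 and 6 reads, and its interval of 0.145 to 1.27 holds 1. The difference in Cox7a1 was not detectable at this depth.

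**Figure D3:**
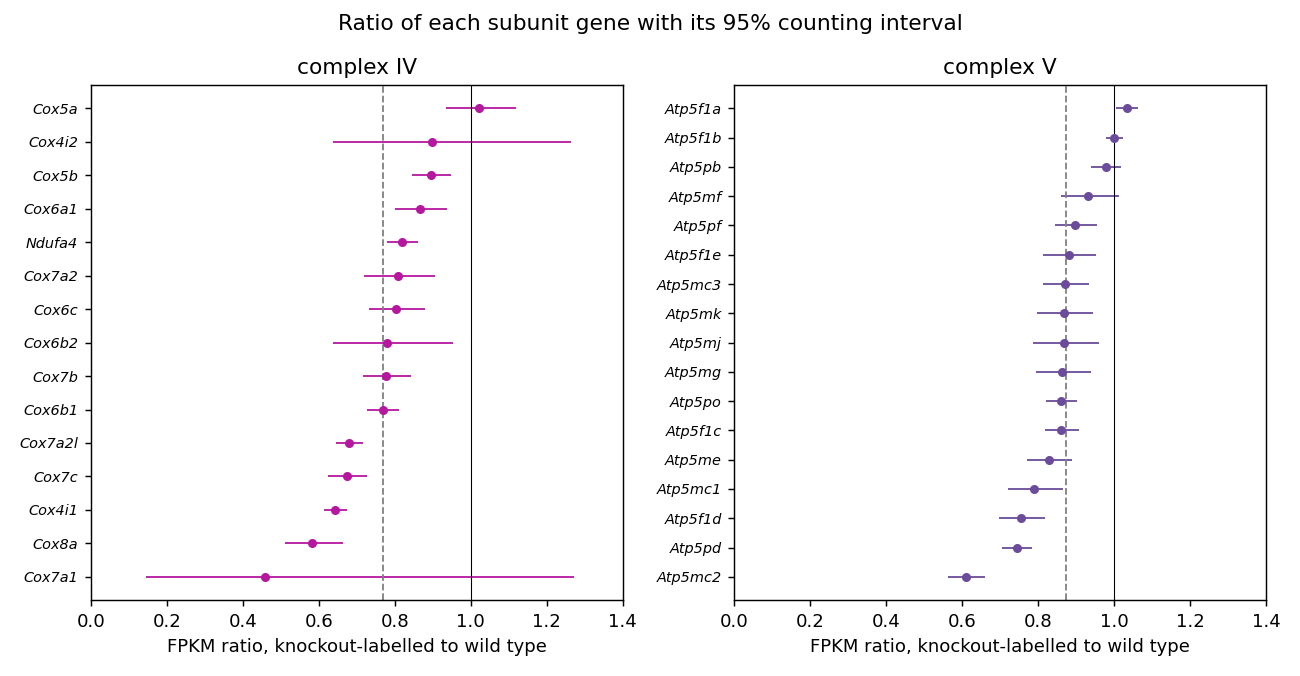
FPKM ratio of the knockout-labelled to the wild type library for each gene of complexes IV and V, with 95% counting intervals as bars; the solid line marks 1 and the dashed line the ratio of the summed FPKM of the complex (0.769 and 0.874). Cox8a and Atp5mc2 lie well to the left of their dashed lines, and Cox5a, Atp5f1a and Atp5f1b lie at or near 1.

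Complex V, the ATP synthase, contributed the most RNA, with sums of 4161 and 3637 FPKM, or 33.3% and 34.5% of the members' total. Its 17 genes had a median of −0.20, 16 were below 0, and the ratio of sums was 0.874 (0.864 to 0.885). Length-centred, the median was 0.09 and 4 of 17 genes were below 0. Atp5f1b (Atp5b in older annotations), the catalytic beta subunit, was the most abundant of all members and nearly equal, at 563 and 563 FPKM, a ratio of 0.999 (0.977 to 1.02). Atp5f1a (Atp5a1), the alpha subunit, stood at 266 and 275 FPKM, a ratio of 1.03 (1.005 to 1.06). The alpha and beta subunits alternate in the F1 head. The shorter F1 genes were lower, with Atp5f1d (Atp5d) at 106 and 79.8 FPKM, a ratio of 0.754 (0.695 to 0.818).

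The c ring, the rotor that protons turn, is built from one mature protein encoded by Atp5mc1, Atp5mc2 and Atp5mc3 (Atp5g1, Atp5g2 and Atp5g3), which differ in their mitochondrial import sequences. Atp5mc2 was listed at 179.8 and 109.5 FPKM, a ratio of 0.609 (0.562 to 0.660), the lowest of complex V. Atp5mc3 was listed at 178 and 155 FPKM, a ratio of 0.871 (0.813 to 0.932), and Atp5mc1 at 96.0 and 75.8 FPKM, a ratio of 0.790 (0.721 to 0.865). The counting interval of Atp5mc2 overlaps neither of the others, but this gene was picked as the lowest of the complex, so this only describes the values. Of the summed c ring FPKM, Atp5mc2 held 39.6% of the wild type and 32.2% of the knockout-labelled sum, and Atp5mc3 39.2% and 45.5%. Atp5mc1 has 1 near-identical pseudogene copy and Atp5mc2 has 2, between which reads could be split.

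The peripheral stalk genes went from Atp5pd (Atp5h), at 415 and 309 FPKM with a ratio of 0.744 (0.706 to 0.784), to Atp5pb, at 201 and 197 FPKM with a ratio of 0.977 (0.939 to 1.02). Between them lay Atp5po (Atp5o), at 338 and 291 FPKM, and Atp5pf (Atp5j), at 267 and 239 FPKM. The 5 small membrane subunits kept close together. Atp5me (Atp5k) was listed at 364 and 302 FPKM, Atp5mk at 244 and 211 FPKM, Atp5mf (Atp5j2) at 179.6 and 167 FPKM, Atp5mj at 178 and 155 FPKM and Atp5mg (Atp5l) at 169 and 146 FPKM. Their differences ran only from −0.27 to −0.10, and length-centred all 5 were above 0, from 0.17 to 0.32, under the 200-gene reference. Atp5mg has 9 near-identical copies, the most of any member. The annotated spans of 13 members overlap another listed gene, Atp5f1a with Haus1 and Atp5pf with Gabpa among them, and whether counting used strand is not known here.

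**Figure D4:**
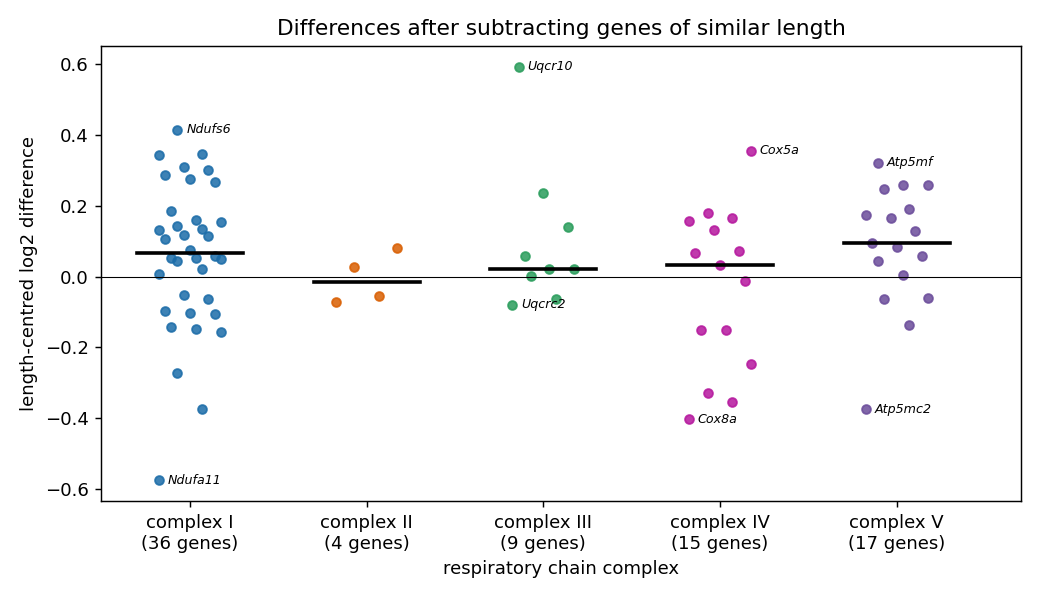
Length-centred log2 difference (a member minus the median of the 200 other genes nearest in length) for the genes of each complex; points are genes and black bars are medians. The medians lie between −0.01 for complex II and 0.09 for complex V, while single genes run from −0.58 (Ndufa11) to 0.59 (Uqcr10).

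The members' promoters were searched for the motifs of 3 kinds of factor known to drive respiratory chain genes: nuclear respiratory factor 1 (NRF1), the ETS family that includes GABP (CCGGAAG) and YY1. The letters of the NRF1 and YY1 matches stand in capitals in the sequences below. Windows of 250 bases before to 50 after a start, from RefSeq on the mouse build GRCm38, were scanned on both strands, and none of these motifs contains another. For the members, 67 of 81 genes matched the table, with 72 windows. The NRF1 letters were in 25% of member windows, against 4.6% of all 32851 windows. In the windows of other protein-coding genes that averaged 1 FPKM or more the share was 10.2%. For the ETS letters the shares were 23.6%, 8.86% and 18.3%, and for YY1 6.94%, 0.852% and 2.1%. The 17 members with the NRF1 letters had a median length-centred difference of 0.06, and the 50 without had 0.07. For ETS these medians were 0.16 and 0.06, over 17 and 50 members, and for YY1 −0.05 and 0.07, over 5 and 62 members. Any of the 3 motifs was in 15 of 34 windows of complex I, 3 of 3 of complex II, 3 of 5 of complex III, 3 of 12 of complex IV and 10 of 18 of complex V. That was 47.2% of all member windows, against 27.7% for the other protein-coding genes. A match describes the letters in a window and is not a binding site.

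The 100 bases before the start are shown, 5′ to 3′, for the 3 c ring genes, of which Atp5mc2 had the lowest ratio, for the members of complexes I and III with the highest length-centred difference, and for Atp5pf, whose annotated span overlaps that of Gabpa, the gene of the GABP alpha chain. Capitals mark whole motif matches within the stretch.
Atp5mc2: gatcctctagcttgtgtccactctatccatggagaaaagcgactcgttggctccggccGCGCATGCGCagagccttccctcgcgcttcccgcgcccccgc
Atp5mc3: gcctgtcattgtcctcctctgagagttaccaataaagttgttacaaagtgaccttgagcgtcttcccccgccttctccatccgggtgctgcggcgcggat
Atp5mc1: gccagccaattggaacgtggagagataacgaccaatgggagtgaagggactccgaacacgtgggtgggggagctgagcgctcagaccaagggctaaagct
Ndufs6: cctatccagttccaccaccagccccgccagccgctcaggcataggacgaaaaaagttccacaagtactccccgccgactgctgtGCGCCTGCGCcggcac
Uqcr10: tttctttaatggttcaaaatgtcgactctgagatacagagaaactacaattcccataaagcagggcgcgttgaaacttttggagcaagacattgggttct
Atp5pf: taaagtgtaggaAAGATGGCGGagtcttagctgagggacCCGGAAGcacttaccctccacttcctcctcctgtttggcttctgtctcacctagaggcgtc

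The NRF1 letters began 42 bases before the start in Atp5mc2, which was low for its length, and 16 bases before it in Ndufs6, which was high for its length. In Atp5mc3 they lay after the start, outside the stretch shown. The Atp5pf stretch, from the second of its 2 windows, held the YY1 letters at 88 bases and the ETS letters at 61 bases before the start. Uqcr10 and Atp5mc1 held none of the 3 motifs in their windows.

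Genes that assemble and regulate the complexes had medians between −0.20 and −0.14. Length-centred, the medians were −0.03 for complex I, −0.09 for complexes II and III, 0.08 for complex IV and −0.06 for complex V. Of 18 complex I assembly genes, 13 were below 0, with a median of −0.14 and 0 past 1.5-fold. Tmem126b (8.58 and 5.86 FPKM), Dmac1 (53.7 and 38.4 FPKM) and Ndufaf3 (8.17 and 5.80 FPKM) were lower, while Timmdc1, of the membrane arm, stood at 11.9 and 15.5 FPKM. Of 10 assembly genes of complexes II and III, 9 were below 0 with a median of −0.20, and 1 was past 1.5-fold, Sdhaf1, which serves the iron-sulphur subunit of complex II, at 27.0 and 17.1 FPKM. Of 22 complex IV assembly genes, 14 were below 0 with a median of −0.14. The genes past 1.5-fold were Cox16 (23.6 and 12.0 FPKM, a ratio of 0.507, 0.420 to 0.609) and Pet100 (29.2 and 17.3 FPKM, a ratio of 0.592, 0.511 to 0.685). Cox14 stood at 19.9 and 13.3 FPKM. For complex V, the inhibitor gene Atp5if1 was at 303 and 225 FPKM, a ratio of 0.742 (0.715 to 0.770), and the F1 assembly gene Atpaf1 at 8.21 and 12.1 FPKM, a ratio of 1.48 (1.27 to 1.72). In that list of 5 genes, 4 were below 0.

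Genes that feed the chain had medians near 0, where 49% of all genes were below 0 and 6.13% at least 1.5-fold lower. Of 13 tricarboxylic acid cycle genes, 5 were below 0, with a median of 0.04, and Dld, a subunit shared by several dehydrogenases, stood at 38.9 and 54.1 FPKM. Of 14 genes for electron carriers and ubiquinone synthesis, 6 were below 0 with a median of 0.02. Coq7, a hydroxylase of ubiquinone synthesis, was the only one past 1.5-fold, at 18.8 and 12.1 FPKM. Coq8a (6.90 and 5.03 FPKM) and Coq2 (19.4 and 15.75 FPKM) were also lower, while Coq5 stood at 15.2 and 18.0 FPKM. These genes are longer, with median lengths of 2291 and 1740 bases, and length-centred the medians of both lists were 0.10 and 0.17, beside 0.06 for the members.

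Among 15 transcription factors and regulators that averaged 1 FPKM or more, 4 were below 0, beside 49% of all genes, and the median was 0.07. These genes are long, with a median of 3064 bases, and length-centred the median was 0.06. Genes of 1500 bases or more outside the members had a median difference of 0.06, with 42.1% below 0. Of all genes, 6.11% were at least 1.5-fold higher. Hif1a, the oxygen-sensitive factor that lowers respiration in hypoxia, was listed at 9.09 and 17.2 FPKM, a ratio of 1.89 (1.71 to 2.08), and was the one past 1.5-fold on the log2(FPKM + 1) scale. Gabpa stood at 12.6 and 19.2 FPKM, a ratio of 1.53 (1.41 to 1.66) that falls short of 1.5-fold on that scale, and Yy1 at 36.0 and 53.5 FPKM, while Gabpb1, the partner chain of GABP, stood at 40.3 and 33.0 FPKM. Length-centred, Hif1a was at 0.70, Gabpa at 0.39, Yy1 at 0.60 and Gabpb1 at −0.26. Ppargc1a, the coactivator of mitochondrial biogenesis, was below 1 FPKM on average.

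The median of the 81 members lay between those of the ribosomal protein sets. The 82 cytosolic ribosomal protein genes that averaged 1 FPKM or more had a median of −0.53, with 81 below 0, and a length-centred median of −0.25. The 78 mitochondrial ribosomal protein genes, whose products translate the mitochondrially encoded subunits, had a median of −0.13 and a length-centred median of 0.06, equal to that of the subunit genes at this rounding. The reference genes include both ribosomal protein sets but not the members, so the length-centred values are not on an equal footing. With a reference without cytosolic ribosomal protein genes, the members' length-centred median was 0.04. The differences between these families were not tested.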

How the data were processed

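RNA-seq of cells sorted as LT-HSCs was used, with 1 library per genotype. The authors deposited FPKM values made by them, 1 per gene and library, beside Entrez and RefSeq names and a transcript length, per the file headers. The submitters' processing notes name HISAT, HISAT2, RSEM and mm9 as the build; their settings are not given in the sources. Symbols came from RefSeq on GRCm38 (17169 of 17216 identifiers matched). That build is not the authors', so coordinates were left out. Genes that a file did not list were set to 0.

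The members and lists were chosen with earlier results of these data known. Named were the 3 most abundant and the 3 lowest and 3 highest length-centred members per complex with a mean of at least 5 FPKM, members past 1.5-fold, and up to 4 such genes of each related list by absolute difference. Further members were named to describe the roles within a complex, with values seen.

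Reads were estimated from low values of genes of 200 to 1000 bases with 1 transcript, where FPKM multiplied by the length (reduced by 43 and 40 bases) came in steps of 64.7 and 70.1. Among 342 and 321 such values, 83.9% and 87.9% were whole reads to within 0.15; step and offset were chosen on these values. Exact conditional 95% intervals of the ratio of a gene use these estimates, and intervals cover counting error only. For a ratio of summed FPKM the interval is that of the pooled reads, moved to the FPKM ratio. It is approximate, because reads of genes of different length weigh unequally in such a sum. For 15 members with several transcripts the listed length is an average that differed between the libraries by up to 15.9 bases. Copies are transcripts of other genes in GENCODE vM21 with 95% identity over at least 50% of a member's transcript. The steps were tested on simulated data for 15634 genes, where intervals covered 95.3% of true ratios of 11433 genes. Genes with few simulated reads were left out of that share. The simulated counts held counting error alone and 1 length per gene, so coverage near 95% follows from that model. Reads split between copies and lengths that differ between libraries were not simulated. Values were computed with scipy 1.17.1, pandas 2.3.3 and numpy 2.4.6 under Python 3.11.15 and drawn with matplotlib 3.10.9. Alternatives covered the pseudocount of 1, the filter, the scaling, the reference genes and the membership. No paired analysis or test between genotypes was made.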

Additional observations from a re-analysis of the deposited data

How the results depend on the processing

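With 1 library per genotype no replicate could be left out, and no paired analysis was possible because each genotype had a single library. A median was taken as moved when it shifted by more than 0.12, the median half-width of the members' counting intervals on the log2 scale. Scaling changed the most. With equal FPKM sums the median difference was −0.027 over all members, −0.033 in complex I, 0.0071 in complex II, −0.0049 in complex III, −0.16 in complex IV and −0.014 in complex V, while the median over all genes became 0.18. Members at least 1.5-fold lower numbered 1 with equal sums (Cox7a1) and 8 with equal upper quartiles, against 5. With equal sums the ratio of summed FPKM was 0.962 over all members, and 0.983, 1.04, 0.962, 0.878 and 0.997 in complexes I to V, so that complex II turned. With equal upper quartiles it was 0.821 over all members, and 0.839, 0.820, 0.749 and 0.851 in complexes I, III, IV and V. With equal sums without ribosomal protein genes it was 0.872 over all members, and 0.892, 0.945, 0.872, 0.796 and 0.905 in complexes I to V. Leaving out the most abundant gene gave 0.875, 0.869 and 0.855 in complexes II, III and V. The length-centred median of complex IV was −0.16 with a reference also within 2-fold in mean FPKM. The cause of these shifts was not tested. The other length-centred medians stayed within 0.12 of their values under all alternatives run. The length-centred medians of complexes II, III and IV held both signs, from −0.07 to 0.01, from −0.05 to 0.10 and from −0.16 to 0.07. Leaving out members with copies or with overlapping genes, and a reference of protein-coding genes alone, were chosen after seeing the data.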
